A study of Homo sapiens with 4 samples.

Results

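The MYC, MAX and MXD network is a set of dimerising transcription factors built around the shared partner MAX. Its 10 members here were the rows of the deposited gene count table named MYC, MYCN, MYCL, MAX, MNT, MGA, MXI1, MXD1, MXD3 and MXD4, out of 58735 genes in the table. All 10 were found, each as a single row. RNA sequencing was done on Hey-A8, an established human ovarian cancer cell line, in 2 shSPTLC2 libraries and 2 shCON libraries. The shSPTLC2 cells are labelled as a knockdown of SPTLC2, a catalytic subunit of the enzyme that starts sphingolipid synthesis, and the shCON cells as its negative control. The design text calls the knockdown stable, while the treatment protocol names ZDHHC15 as the hairpin target, describes transient plasmid transfection and gives a harvest at 36 h for both groups. Groups followed the titles. Neither the number of hairpins nor of clones is given, and nothing states that the replicates were separate cultures, so the p-values measure the spread between these libraries, which may be technical.

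MYC, MYCN and MYCL bind E-box DNA, whose core form is CACGTG, as heterodimers with MAX and activate genes of growth, ribosome production and metabolism. MNT, MXI1, MXD1, MXD3 and MXD4 take the same partner to the same sites but recruit SIN3 corepressors with histone deacetylases, and so act as antagonists of MYC. MGA joins MAX within a Polycomb repressor complex. MYC is often amplified or overexpressed in ovarian cancer, and the antagonists are generally linked to quiescence and differentiation.

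Promoters of network genes were searched for the E-box that the network's own factors bind. Promoter windows from RefSeq (GRCh38.p14, 250 bases before to 50 after a start site) were matched by symbol for 9 members, with 14 windows in all, and MYC was not analysed in this respect. The core E-box CACGTG, which reads the same on both strands, was found in 1 window each of 2 members, MNT and MXD4. It was found in 7.26% of the 35116 windows searched, which is a share of windows and not of genes. The variant CACGCG, searched on both strands, was found in 1 window each of 3 members (MGA, MXI1 and MXD3) and in 11.4% of the windows searched. The windows shown are those of the antagonist genes MNT and MXD4, whose transcripts were higher in shSPTLC2, and that of MXD1, whose transcript was lower. The windows of MXI1 and MXD3, whose transcripts were also higher, hold no CACGTG. A link between motif and direction was not tested. Capitals mark CACGTG, which starts 193 bases before the MNT start site and 238 bases before that of MXD4. The MXD1 window, at a RefSeq start inside the gene span given in the table, holds neither form.
MNT, chr17:2401011-2401310, minus strand: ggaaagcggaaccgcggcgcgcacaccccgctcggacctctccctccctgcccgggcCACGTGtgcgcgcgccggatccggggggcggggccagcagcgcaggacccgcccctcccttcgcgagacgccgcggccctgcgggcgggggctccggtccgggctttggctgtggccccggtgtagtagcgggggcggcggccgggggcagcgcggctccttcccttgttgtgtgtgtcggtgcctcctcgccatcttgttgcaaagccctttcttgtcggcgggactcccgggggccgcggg
MXD4, chr4:2262060-2262359, minus strand: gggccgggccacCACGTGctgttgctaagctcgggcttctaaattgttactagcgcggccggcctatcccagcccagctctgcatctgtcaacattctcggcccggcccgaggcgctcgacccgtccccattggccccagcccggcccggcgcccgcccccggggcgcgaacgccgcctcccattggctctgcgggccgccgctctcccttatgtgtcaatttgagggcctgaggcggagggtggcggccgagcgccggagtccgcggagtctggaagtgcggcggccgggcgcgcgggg
MXD1, chr2:69914859-69915158, plus strand: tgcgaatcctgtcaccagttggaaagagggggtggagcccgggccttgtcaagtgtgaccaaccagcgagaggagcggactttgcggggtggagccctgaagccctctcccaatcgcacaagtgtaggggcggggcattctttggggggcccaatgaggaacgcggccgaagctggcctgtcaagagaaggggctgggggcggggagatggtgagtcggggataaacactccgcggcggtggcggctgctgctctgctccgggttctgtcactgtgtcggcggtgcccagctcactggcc
A match of letters is a description of these windows and not evidence of binding.

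The libraries held 14464784 to 15084966 counts each, and 15313 genes passed the filter on low counts and were tested. A count of 0 allowed up to 3 counts, or 0.195 to 0.206 CPM (counts scaled to a common library size) per library, for counting error only. Across genes, log2 CPM had a Pearson correlation of 0.990 within shSPTLC2, 0.987 within shCON and 0.974 to 0.978 between groups. SPTLC2 itself had 39.9 and 43.1 CPM in shSPTLC2 and 58.7 and 60.7 CPM in shCON, a log2 fold change of -0.52 ± 0.12 (adjusted p = 0.0063 in edgeR). Its call was lost if shSPTLC2 replicate 1 (adjusted p = 0.13) or 2 (0.052) was left out, over a range of 4.2e-04 to 0.13. ZDHHC15 had no counts (0) in any of the 4 libraries. The Müllerian marker PAX8 had 494 and 444 CPM in shSPTLC2 and 273 and 294 CPM in shCON (log2 fold change 0.73 ± 0.11, called higher). Epithelial markers KRT7, KRT8 and KRT18 were abundant, whereas CDH1 had 0 counts, MUC16 a single count in all and EPCAM at most 10 counts in a library. KRT19 was scarce, at 1.22 to 1.55 CPM. The mesenchymal markers VIM and CDH2 averaged 4160 and 130 CPM in shSPTLC2 and 4740 and 143 CPM in shCON. WT1 and MSLN averaged 7.95 and 16.0 CPM in shSPTLC2 and 9.79 and 10.5 CPM in shCON. MSLN was called higher (log2 fold change 0.61 ± 0.16). Of these ovarian and mesenchymal markers 9 were tested, of which 2 (PAX8 and MSLN) were called higher, 0 lower and 7 not called. Of 10 markers of other cells, CDH5 was the one above 3 CPM in any library, with 109 and 130 CPM in shSPTLC2 and 57.2 and 55.2 CPM in shCON (log2 fold change 1.09 ± 0.12, called higher), and 4 (CD3E, HBB, DCN and LUM) were at 0 throughout. PECAM1, endothelial like CDH5, had 0.408 and 0.782 CPM in shSPTLC2 and 2.09 and 1.85 CPM in shCON (-1.71 ± 0.46, called lower). Mitochondrially encoded genes took 10.1% and 8.56% of counts in shSPTLC2 libraries and 5.46% and 6.39% in shCON libraries. The part of these differences in the results was not tested.

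MYC transcripts were lower in shSPTLC2 while 4 of the 5 antagonist genes, MNT, MXI1, MXD3 and MXD4, were higher. The antagonist MXD1 was lower, and MAX, MGA and MYCL were not called. Of the 10 members, 9 were tested and MYCN was left out by the filter, with 0 counts in every library. Of those 9, 4 were called higher and 2 lower at an adjusted p under 0.05 (quasi-likelihood test of edgeR, Benjamini-Hochberg adjustment over all tested genes). Over all tested genes 10.4% were called higher and 9.00% lower, 19.4% in all. Both groups were fully separated in CPM for those same 6 members, and for 61.5% of all tested genes (31.3% higher and 30.2% lower in shSPTLC2). Leaving out shSPTLC2 replicate 1 left 0 members called higher and 1 lower, and leaving out shSPTLC2 replicate 2 left 2 higher and 2 lower, while calls over all genes dropped to 413 higher and 227 lower and to 593 higher and 401 lower. RNA was taken from bulk cultures, so fewer cells with a transcript and less of it per cell cannot be told apart.

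**Figure D1:**
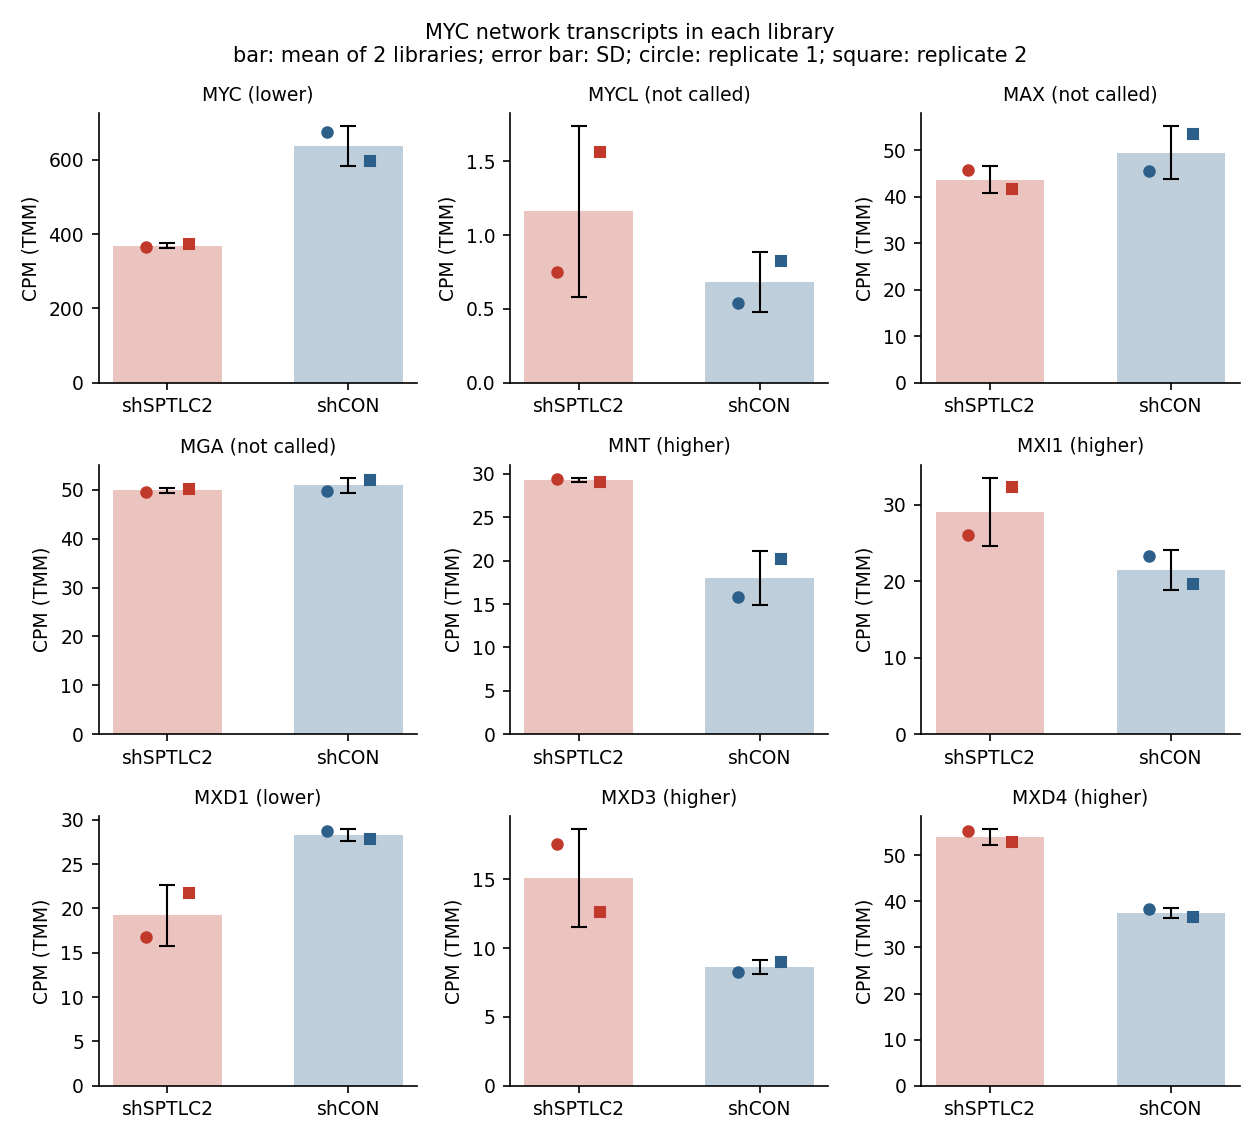
Each panel plots TMM-scaled CPM of 1 network gene, with shSPTLC2 left of shCON; bars are means of 2 libraries, error bars SD, circles replicate 1 and squares replicate 2, and the panel title gives the edgeR call. MYC at 364 and 373 CPM in shSPTLC2 lies below both shCON libraries at 674 and 597 CPM, whereas MNT, MXI1, MXD3 and MXD4 lie above theirs.

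MYC (ENSG00000136997, hg38 chromosome 8, 127735434 to 127741434, plus strand) is the ubiquitous activator of the family. It had 5359 and 5732 counts in shSPTLC2 replicates 1 and 2 and 9992 and 8700 counts in shCON replicates 1 and 2. On the scaled level this was 364 and 373 CPM in shSPTLC2, mean 369 ± 6.39 (SD, n = 2), and 674 and 597 CPM in shCON, mean 636 ± 54.2 (SD, n = 2). Both shSPTLC2 libraries lay well below both shCON libraries, and the gap exceeded the spread within either group. The log2 fold change was -0.78 ± 0.11 (SE; adjusted p = 2.8e-04 in edgeR), a level 0.581 times that of shCON. MYC was called lower under each of the 15 alternative settings, with log2 fold changes of -0.88 to -0.70 and adjusted p from 5.1e-15 to 0.030. Among genes called lower, 328 had a more negative fold change than MYC, and 264 tested genes had a higher mean CPM.

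The other activators were scarce. MYCN (ENSG00000134323, chromosome 2, 15940564 to 15947007), the paralog known from neuroblastoma, had no counts (0) in any library, so that levels of up to 0.204 and 0.195 CPM in shSPTLC2 and 0.202 and 0.206 CPM in shCON would have gone unseen. MYCL (ENSG00000116990, chromosome 1, 39895426 to 39902256), the paralog first found amplified in small cell lung cancer, had 11 and 24 counts in shSPTLC2 and 8 and 12 counts in shCON. Its libraries overlapped between the groups, and its log2 fold change of 0.76 ± 0.53 was not called (adjusted p = 0.34 in edgeR). At this depth no difference was detected in MYCL, and MYCN could not be tested.

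Next to MYC on chromosome 8 lies PVT1, a long noncoding RNA gene whose span begins 53.1 kb beyond the end of MYC. It had 1440 and 1356 counts in shSPTLC2 and 1019 and 1109 counts in shCON, so the groups did not overlap and the direction was opposite to that of MYC. PVT1 rose by a log2 fold change of 0.36 ± 0.11 (adjusted p = 0.035 in edgeR). Leaving out shSPTLC2 replicate 1 (log2 fold change 0.29), shSPTLC2 replicate 2 (0.43) or shCON replicate 1 (0.28) ended its call. PVT1 was also not called by DESeq2 (adjusted p = 0.058) or by limma on FPKM, counts scaled by gene length and depth. With limma the adjusted p was 0.082 on FPKM plus 0.1 and 0.083 on FPKM plus 1. CASC11, a noncoding gene on the opposite strand whose span lies 1.47 kb from MYC, had 0 and 1 counts in shSPTLC2 and 1 and 1 in shCON.

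MAX (ENSG00000125952, chromosome 14, 65006174 to 65102695, minus strand), the dimer partner that MYC, its antagonists and MGA share, had 673 and 639 counts in shSPTLC2 and 675 and 780 counts in shCON. Its level was 45.8 and 41.6 CPM in shSPTLC2 and 45.5 and 53.5 CPM in shCON. One shSPTLC2 library was level with the lower shCON library, so the groups overlapped. The log2 fold change was -0.18 ± 0.13 (adjusted p = 0.34 in edgeR), and it ranged from -0.30 to -0.07 over the alternatives with no call. FNTB lies across MAX on the opposite strand but shares no exon bases with it, and the antisense gene AL139022.1, which shares 4.15% of the MAX exon bases, had at most 9 counts in a library.

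MGA (ENSG00000174197, chromosome 15, 41621224 to 41773081, plus strand) carries a T-box as well as a MAX-binding domain. It had the smallest log2 fold change of the tested members, with 728 and 771 counts in shSPTLC2 and 738 and 758 counts in shCON. These are levels of 49.5 and 50.2 CPM in shSPTLC2 and 49.8 and 52.0 CPM in shCON. The groups overlapped, the log2 fold change was -0.03 ± 0.12 (adjusted p = 0.88 in edgeR), and its sign changed with the scaling (0.03 with library totals).

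MNT (ENSG00000070444, chromosome 17, 2384060 to 2401118, minus strand) is the broadly expressed antagonist, present in cycling as well as resting cells. It had 433 and 446 counts in shSPTLC2 and 234 and 295 counts in shCON, or 29.4 and 29.1 CPM in shSPTLC2 and 15.8 and 20.2 CPM in shCON. Both shSPTLC2 libraries were nearly equal and stood above both shCON libraries. MNT rose by a log2 fold change of 0.70 ± 0.15 (adjusted p = 0.0042 in edgeR). Without shSPTLC2 replicate 1 the value was 0.69 and not called (adjusted p = 0.072, over a range of 3.9e-06 to 0.072 for the 15 alternatives).

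MXD4 (ENSG00000123933, chromosome 4, 2247432 to 2262294, minus strand), an antagonist associated with cells leaving the cycle, was the most abundant of the 5. It had 812 and 810 counts in shSPTLC2 and 569 and 535 counts in shCON, or 55.2 and 52.8 CPM in shSPTLC2 and 38.4 and 36.7 CPM in shCON. The groups were clearly separated, and the spread within each was small. MXD4 rose by a log2 fold change of 0.52 ± 0.12 (adjusted p = 0.0065 in edgeR). The value stayed between 0.36 and 0.58 over the alternatives, but leaving out shSPTLC2 replicate 1 (adjusted p = 0.11) or replicate 2 (0.056) ended the call, over a range of 0.0011 to 0.11.

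MXD3 (ENSG00000213347, chromosome 5, 177301461 to 177312757, minus strand), known in mouse for its expression in dividing cells during S phase, had the largest called rise among the members. It had 259 and 193 counts in shSPTLC2 and 123 and 131 counts in shCON, or 17.6 and 12.6 CPM in shSPTLC2 and 8.29 and 8.99 CPM in shCON. The shSPTLC2 libraries differed from each other more than the shCON libraries did, and both were above them. MXD3 rose by a log2 fold change of 0.80 ± 0.19 (adjusted p = 0.0091 in edgeR), with 0.54 and no call without shSPTLC2 replicate 1. MXD3 was also not called by limma on FPKM plus 0.1 (adjusted p = 0.056) or plus 1 (0.058). Its counts are uncertain because 22.5% of its exon bases are also exon of PRELID1 on the opposite strand and 18.0% of RAB24 on the same strand, and the strand setting of the counting is not given in the sources used here. PRELID1 had a log2 fold change of -0.07 ± 0.13 and RAB24 of -0.05 ± 0.19, neither called, and their values changed sign without shCON replicate 1 (0.13 and 0.04).

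MXI1 (ENSG00000119950, chromosome 10, 110207605 to 110287365, plus strand), also called MXD2, had 382 and 496 counts in shSPTLC2 and 346 and 286 counts in shCON. Its level was 26.0 and 32.3 CPM in shSPTLC2 and 23.3 and 19.6 CPM in shCON. The groups did not overlap, but the lower shSPTLC2 library was close to the higher shCON library. MXI1 rose by a log2 fold change of 0.44 ± 0.15, just past the threshold (adjusted p = 0.049 in edgeR). The call was lost under 8 of 15 alternatives, among them DESeq2 (adjusted p = 0.11), limma-voom (0.053), and the fits without shSPTLC2 replicate 1 (0.093), shSPTLC2 replicate 2 (0.42, at a log2 fold change of 0.27) or shCON replicate 2 (0.15, at 0.32), over a range of 0.0034 to 0.42.

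MXD1 (ENSG00000059728, chromosome 2, 69897688 to 69942945, plus strand), formerly MAD1 and induced when many cell types differentiate, was the 1 antagonist that fell. It had 247 and 333 counts in shSPTLC2 and 426 and 405 counts in shCON, or 16.8 and 21.7 CPM in shSPTLC2 and 28.7 and 27.8 CPM in shCON. Both shSPTLC2 libraries were below the shCON libraries, and they differed more from each other. The log2 fold change was -0.55 ± 0.15 (adjusted p = 0.016 in edgeR), and it was -0.38 and not called without shSPTLC2 replicate 1. MXD1 was also not called by limma on FPKM plus 0.1 (adjusted p = 0.067) or plus 1 (0.066). SNRNP27 on the same strand shares 3.73% of the MXD1 exon bases and had a log2 fold change of -0.39 ± 0.16 (adjusted p = 0.10 in edgeR), which was -0.65 and called without shCON replicate 1 (adjusted p = 1.1e-04, range 1.1e-04 to 0.73).

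**Figure D2:**
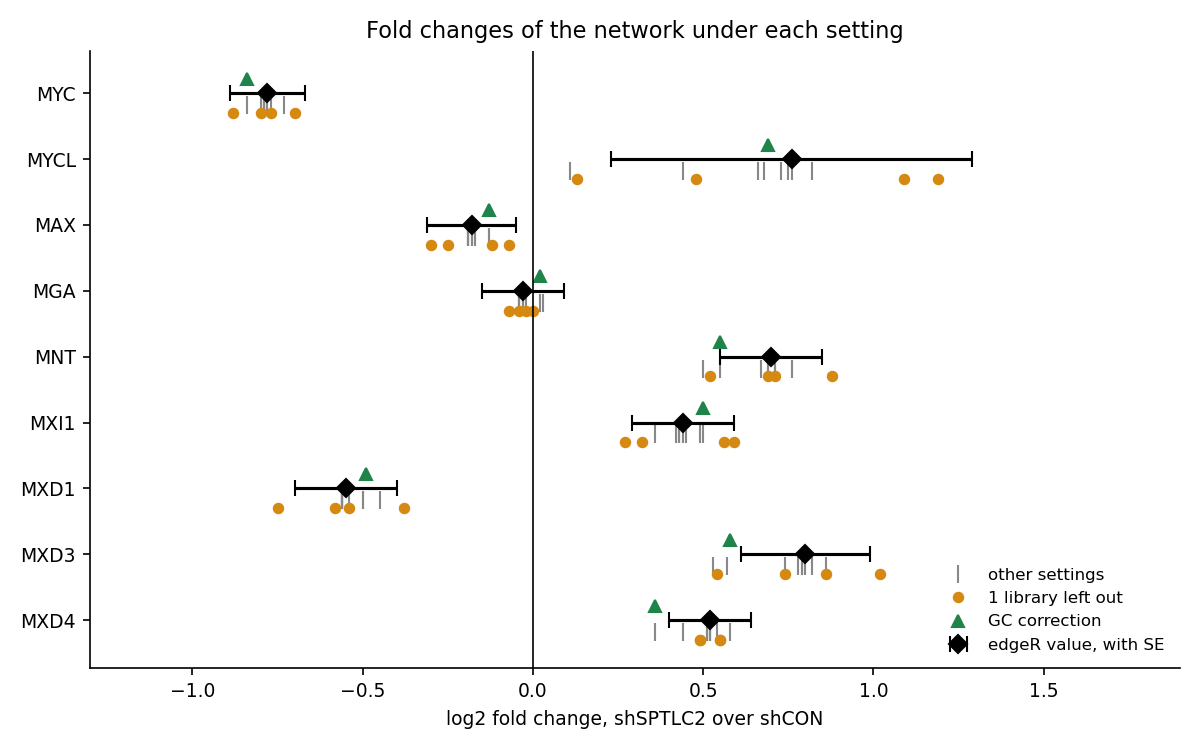
Log2 fold changes of shSPTLC2 over shCON for the 9 tested members; black diamonds with SE bars are the edgeR values, green triangles the GC-corrected values, orange circles the fits with 1 library left out and grey ticks all other settings. MYC stays between -0.88 and -0.70 in all of them, whereas MXI1 spreads from 0.27 to 0.59.

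Transcript GC content differed among the members in step with part of these changes. MNT, MXD4 and MXD3 have transcripts of 60.6%, 61.0% and 62.8% GC, above the median of 48.8% for tested genes. Among the 1140 tested genes of 60 to 63% GC, 20.1% were called higher and 4.91% lower, against 10.4% and 9.00% of all tested genes. After correction for GC content the log2 fold changes were 0.55 for MNT, 0.36 for MXD4 and 0.58 for MXD3, each still called (adjusted p = 0.017, 0.034 and 0.040 in edgeR). MXI1 and MXD1 have transcripts of 46.3% and 44.5% GC, and MYC of 57.0%. Among the 2603 tested genes of 44 to 48% GC, 6.57% were called higher and 12.5% lower, and among the 1863 of 55 to 59% GC, 11.8% were called higher and 9.07% lower. For MXI1, MXD1 and MYC the corrected values were 0.50, -0.49 and -0.84, all called (adjusted p = 0.026, 0.025 and 1.8e-04 in edgeR). Whether GC content accounts for part of these changes was not tested.

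Per unit of length, MYC was by far the most abundant member in every library. The authors' deposited FPKM, a read count scaled by gene length and library depth, of MYC was 120 and 123 in shSPTLC2 and 225 and 198 in shCON, while MAX had 10.2 and 9.32 FPKM in shSPTLC2 and 10.3 and 12.0 FPKM in shCON. In shSPTLC2 libraries the order below MAX was MXD4 (7.57 FPKM), MXI1 (6.27), MNT (3.32), MXD1 (3.00), MXD3 (2.90), MGA (2.80) and MYCL (0.226). The ranges of MXD1 and MXD3 overlapped each other and those of MNT and MGA, so these pairs cannot be ranked. MNT (3.30 to 3.33 FPKM) was above MGA (2.77 to 2.82 FPKM). In shCON libraries the order was MXD4 (5.30 FPKM), MXI1 (4.65), MXD1 (4.44), MGA (2.87), MNT (2.06), MXD3 (1.67) and MYCL (0.134), with MXI1 and MXD1 overlapping. MXD1 was above MNT and MXD3 in both shCON libraries, but could not be told from either in shSPTLC2. FPKM uses the summed exon length in the table, which counts exons of all isoforms and lowers the values of genes with long unused exons.

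Within a library, MYC was lower relative to its antagonists in shSPTLC2. The summed FPKM of MNT, MXI1, MXD1, MXD3 and MXD4 was 22.6 and 23.5 in shSPTLC2 and 18.5 and 17.8 in shCON. The ratio of MYC FPKM to that sum was 5.30 and 5.26 in shSPTLC2 and 12.2 and 11.1 in shCON. MYC FPKM over MAX FPKM was 11.8 and 13.2 in shSPTLC2 and 21.9 and 16.5 in shCON, and the summed antagonists over MAX were 2.22 and 2.52 in shSPTLC2 and 1.79 and 1.48 in shCON. Neither ratio overlapped between the groups. The ratios reuse the levels of members called above, and 61.5% of all tested genes were also fully separated in CPM. MXD1 made up 11.6% and 14.4% of the antagonist sum in shSPTLC2 and 24.5% and 24.4% in shCON. These ratios describe transcripts and carry no test, and protein was not measured here.

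**Figure D3:**
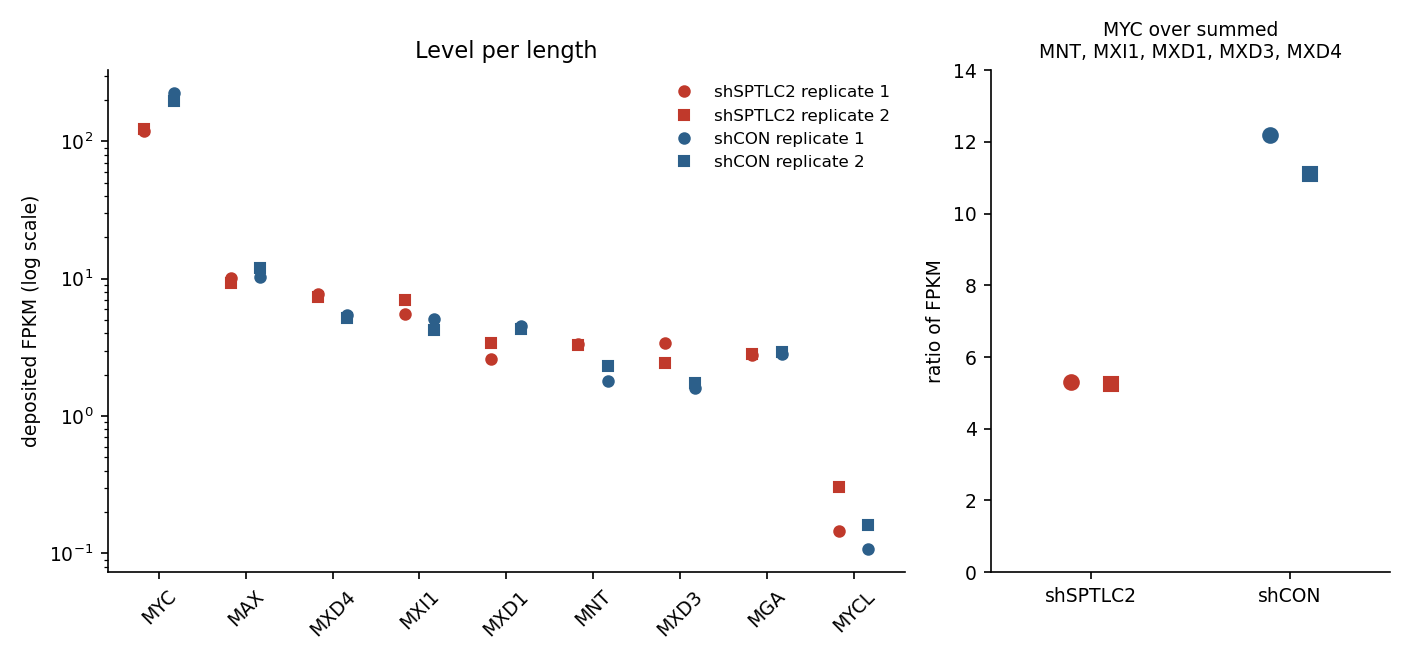
Left, deposited FPKM on a log scale for each network gene with counts, with shSPTLC2 in red left of shCON in blue and 1 symbol per library; right, the ratio of MYC FPKM to the summed FPKM of the 5 antagonists, from 0. MYC exceeds every other member in each library, and the ratio is 5.30 and 5.26 in shSPTLC2 and 12.2 and 11.1 in shCON.

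MLX heads the parallel branch of the network, pairing with MLXIP and MLXIPL, the glucose-sensing MondoA and ChREBP. MLX had 1132 and 1019 counts in shSPTLC2 and 811 and 830 in shCON, and rose by a log2 fold change of 0.36 ± 0.12 (adjusted p = 0.043 in edgeR). That call was lost without shSPTLC2 replicate 1 (log2 fold change 0.25), shSPTLC2 replicate 2 (0.46) or shCON replicate 1 (0.32). MLX was also not called by DESeq2 (adjusted p = 0.078) or by limma on FPKM plus 0.1 (0.09) or plus 1 (0.092). MLXIP had 1863 and 1993 counts in shSPTLC2 and 1745 and 1472 in shCON, a log2 fold change of 0.23 ± 0.11 that was not called (adjusted p = 0.16 in edgeR). Without shCON replicate 1 it was called (0.34, adjusted p = 0.020, range 0.020 to 0.52). The MLX promoter window holds CACGTG, 50 bases before the start site. MLXIPL was too scarce to test, with 4 and 0 counts in shSPTLC2 and 1 and 3 in shCON.

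Genes that MYC is known to activate were mostly not called, and those that were called were almost all lower in shSPTLC2. Of 66 such genes 65 were tested, and 15 fell, 1 rose and 49 were not called, so that 23.1% fell, against 9.00% of all tested genes. This list, like those below, was chosen with earlier results of these data known, so the share is a description only. With library totals, and with limma on FPKM at either pseudocount, 9 fell. The list's median log2 fold change was -0.19, against 0.005 over all tested genes, and 52 of the 65 values were negative. The nucleolar protein genes NCL and NPM1, needed for ribosome assembly, were the most abundant of the list and fell with log2 fold changes of -0.83 ± 0.13 and -0.70 ± 0.12. NCL averaged 768 CPM in shSPTLC2 and 1360 CPM in shCON, and NPM1, whose reads may be shared with its processed pseudogenes, 1130 CPM in shSPTLC2 and 1840 CPM in shCON. SHMT2, the mitochondrial serine hydroxymethyltransferase, AIMP2, a scaffold of the tRNA synthetase complex, HK2, a hexokinase, and ODC1, the first enzyme of polyamine synthesis, fell with log2 fold changes of -0.59 ± 0.11, -0.65 ± 0.12, -0.57 ± 0.11 and -0.55 ± 0.11. Adjusted p for these 6 genes ran from 5.2e-04 for NCL to 0.0029 for ODC1 in edgeR.

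Only 2 MYC-induced genes were called lower when shSPTLC2 replicate 1 was left out, and 4 when shSPTLC2 replicate 2 was, and 2 were called higher when shCON replicate 1 was. NCL and AIMP2 were called in each of the 15 alternatives. Without shSPTLC2 replicate 1 the others had adjusted p of 0.067 (NPM1), 0.055 (SHMT2), 0.063 (HK2) and 0.093 (ODC1), and SHMT2 (0.057) and ODC1 (0.054) also lost the call without shSPTLC2 replicate 2. Over all alternatives the adjusted p ran from 2.8e-14 to 0.067 for NPM1, 2.2e-08 to 0.057 for SHMT2, 5.3e-05 to 0.063 for HK2 and 5.9e-08 to 0.093 for ODC1. The 1 gene that rose, SLC29A2, a nucleoside transporter named after its value was seen, had a log2 fold change of 1.06 ± 0.27 (adjusted p = 0.013 in edgeR), and lost its call when shSPTLC2 replicate 2 was left out (0.85, adjusted p = 0.16, range 0.0032 to 0.16).

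A further list held 18 genes reported as repressed by MYC or as restraining growth. The values of 5 of them (BTG2, TP53INP1, CCNG2, CDKN1B and GADD45A) were known when the list was written, so that its counts and median rest in part on genes chosen with their direction in view. Of the other 13, 10 were tested, of which 3 rose, 1 fell and 6 were not called. With the 5 included, 15 were tested, of which 7 rose (46.7%), 2 fell (13.3%) and 6 were not called, against 10.4% higher and 9.00% lower over all tested genes, with a median log2 fold change of 0.46. BTG2, an antiproliferative factor, averaged 18.1 CPM in shSPTLC2 and 7.86 CPM in shCON and rose by 1.21 ± 0.17 on the log2 scale (adjusted p = 3.4e-04 in edgeR). HMOX1, the haem oxygenase, rose by 0.64 ± 0.13, and THBS1, the secreted inhibitor of angiogenesis, by 0.52 ± 0.11.

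The 2 genes of that list that fell were the stress genes GADD45A, with a log2 fold change of -0.69 ± 0.11, and KLF6, with -0.41 ± 0.11. CDKN1A, which encodes the CDK inhibitor p21 and is a much studied target of MYC repression, averaged 449 CPM in shSPTLC2 and 554 CPM in shCON, a log2 fold change of -0.30 ± 0.11 that was not called (adjusted p = 0.055 in edgeR). BTG2 and GADD45A were called whichever library was left out. With shSPTLC2 replicate 1 left out 4 genes were called higher and 1 lower, with shSPTLC2 replicate 2 left out 1 higher and 1 lower, and with shCON replicate 1 left out 5 were called lower. CDKN1A was called lower in 7 of 15 alternatives, among them DESeq2 (adjusted p = 0.035), limma-voom (0.044) and the fits that left out shCON replicate 1 (0.013) or 2 (0.024), over a range of 0.013 to 0.37. HMOX1 lost its call without shSPTLC2 replicate 2 (log2 fold change 0.57). THBS1 lost it without shSPTLC2 replicate 1 (0.56) or 2 (0.47), and KLF6 without shSPTLC2 replicate 1 (-0.31) or 2 (-0.53). KLF6 was also not called by limma on FPKM plus 0.1 (adjusted p = 0.056) or plus 1 (0.057).

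**Figure D4:**
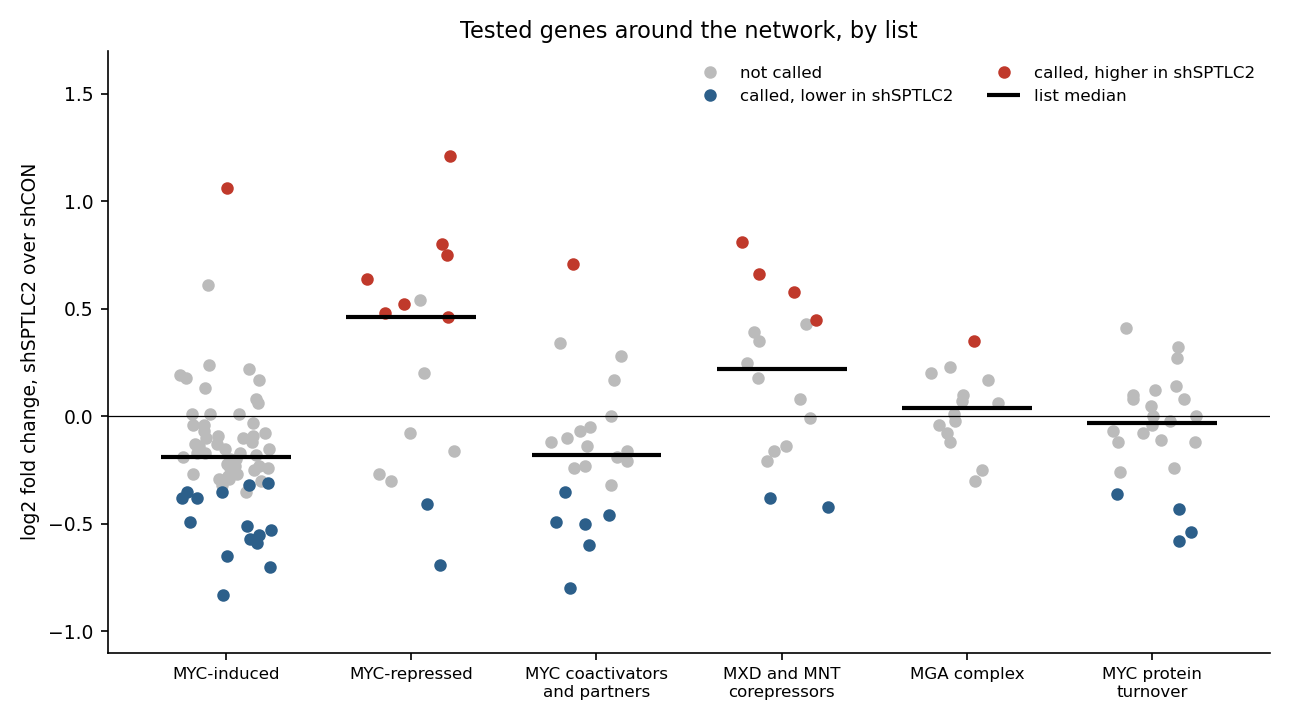
Log2 fold changes of shSPTLC2 over shCON for the tested genes of 6 lists around the network; each point is a gene, red called higher and blue called lower in shSPTLC2, grey not called, and black lines are list medians. The MYC-induced list has a median of -0.19 with 15 genes called lower, and the MYC-repressed list a median of 0.46 with 7 genes called higher. The MYC-repressed list also holds genes reported as restraining growth, and the values of 5 of its genes were known when it was written. Of its other 10 tested genes, 3 were called higher, 1 lower and 6 not called.

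Cofactors of the 2 sides of the network were compared in the same fit. Of 22 coactivators and partners of MYC, all tested, 6 fell (27.3%), 1 rose (4.55%) and 15 were not called, against 9.00% lower and 10.4% higher over all tested genes (list median -0.18). The acetyltransferase genes KAT5 (-0.80 ± 0.15) and CREBBP (-0.49 ± 0.11) fell, as did the PAF complex genes CTR9 (-0.50 ± 0.11) and PAF1 (-0.46 ± 0.12), SMARCB1 of the SWI/SNF remodeller (-0.60 ± 0.15), and RUVBL1. KAT2A, which encodes the acetyltransferase GCN5, rose by 0.71 ± 0.11 (adjusted p = 5.8e-04 in edgeR) and was called in all 15 alternatives. Fewer genes of this list were called lower when either shSPTLC2 library was left out. KAT5 (log2 fold change -0.78), CREBBP (-0.48), CTR9 (-0.42) and PAF1 (-0.44) lost their calls without shSPTLC2 replicate 1. CREBBP (-0.51) and PAF1 (-0.49) also lost theirs without shSPTLC2 replicate 2. SMARCB1 was at -0.38 and not called without shSPTLC2 replicate 2. It was also not called by limma on FPKM plus 0.1 (adjusted p = 0.078) or plus 1 (0.077).

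Of 16 genes of the corepressor and histone deacetylase complexes that the antagonists recruit, all tested, 4 rose (25.0%), 2 fell (12.5%) and 10 were not called, against 10.4% higher and 9.00% lower over all tested genes (list median 0.22). With limma on FPKM, 2 rose. Both scaffold genes were among the 4, SIN3B with 128 CPM in shSPTLC2 and 85.8 CPM in shCON (0.58 ± 0.11; adjusted p = 0.0019 in edgeR) and SIN3A with 53.3 CPM in shSPTLC2 and 39.1 CPM in shCON (0.45 ± 0.12; adjusted p = 0.016). The SIN3 subunit genes ARID4A (0.81 ± 0.17) and ARID4B (0.66 ± 0.14) rose with them, while SAP18 (-0.42 ± 0.11) and RBBP7 (-0.38 ± 0.11) fell. The deacetylase genes HDAC1, with 134 CPM in shSPTLC2 and 135 CPM in shCON, and HDAC2, with 132 CPM in shSPTLC2 and 152 CPM in shCON, had log2 fold changes of -0.01 ± 0.10 and -0.21 ± 0.10 and were not called. The sign of HDAC1 changed with library totals (0.04) and with GC correction (0.05). The number called higher was 1 without either shSPTLC2 library and 7 without shCON replicate 1, and the number called lower was 0 without either shSPTLC2 library. SIN3B lost its call without shSPTLC2 replicate 1 (log2 fold change 0.54) and SIN3A without shSPTLC2 replicate 1 (0.48) or 2 (0.41). SIN3A was also not called by limma on FPKM plus 0.1 or plus 1 (adjusted p = 0.081 in both).

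Of 14 partners of MGA in its Polycomb complex, all tested, 1 rose (EHMT2, a histone H3 lysine methyltransferase, 0.35 ± 0.11; adjusted p = 0.044 in edgeR) and 13 were not called, so that 7.14% were called higher, near the 10.4% of all tested genes, with a median of 0.04. EHMT2 was not called under 9 of 15 alternatives (adjusted p range 0.023 to 0.28), among them the fits without either shSPTLC2 library or without shCON replicate 1 (0.20, 0.28 and 0.058). No gene (0) was called lower, with 0 at an unadjusted p under 0.05 and 0 by DESeq2 or limma-voom. The DNA-binding subunit gene E2F6 had -0.30 ± 0.15 and the subunit gene PCGF6 -0.25 ± 0.14.

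Genes that control the turnover of MYC protein, which has a short life, were mostly not called. Of 24 genes, all tested, 4 fell (16.7%, against 9.00% of all tested genes) and 20 were not called, with a median of -0.03. The ubiquitin ligase genes HUWE1 (-0.58 ± 0.12) and FBXL14 (-0.54 ± 0.13), the deubiquitinase gene USP22 (-0.43 ± 0.10) and SET, an inhibitor of the phosphatase PP2A (-0.36 ± 0.11), fell. None (0) were called higher by edgeR, DESeq2 or limma-voom, with 3 at an unadjusted p under 0.05 in edgeR. SKP2 (0.32 ± 0.12; adjusted p = 0.077) and USP28 (0.41 ± 0.16; adjusted p = 0.082) had the next smallest adjusted p in edgeR, and both were called higher with library totals (0.043 and 0.048; ranges 0.026 to 0.35 and 0.023 to 0.34). Leaving out shSPTLC2 replicate 1 left 0 genes called lower, and leaving out shSPTLC2 replicate 2 left 1. USP28 was called higher when shCON replicate 2 was left out (0.54, adjusted p = 0.023, range 0.023 to 0.34).

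For MYC and for MNT, the genes that tracked each most closely across the 4 libraries were sought among 9110 coding genes averaging 10 CPM or more. The measure was the Euclidean distance between centred log2 CPM values. For MYC they were TUBA1C (distance 0.068), an alpha-tubulin gene with near-identical paralogs, NT5E (0.069), which encodes the ectoenzyme CD73, SIGLEC15, PHF14 and KAT14. NT5E had 459 and 447 CPM in shSPTLC2 and 824 and 760 CPM in shCON. For MNT, the called member with the smallest adjusted p among those that rose, they were TTLL3 (distance 0.046), RBL2 (0.060), CCDC14, NKTR and GAD1. RBL2, which encodes the pocket protein p130, averaged 51.1 CPM in shSPTLC2 and 31.9 CPM in shCON. The group difference enters this distance, which is a description only.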

How the data were processed

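Gene expression of Hey-A8 cells was measured by RNA sequencing in 4 libraries, 2 shSPTLC2 and 2 shCON. The authors deposited raw read counts per Ensembl gene, as whole numbers, and FPKM values. Within a relative tolerance of 1e-06 the deposited FPKM equal each count divided by the table's gene length and a library factor. Per the submitters' processing notes the tools were HISAT2, StringTie and SAMtools and the build hg38, with no versions. How reads were counted, and with which strand setting, is not given in the sources used here. All 58735 IDs, symbols, starts and ends matched GENCODE 29, which gave transcript GC content.

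Counts were tested in R 4.3.3 with edgeR 4.0.16: filterByExpr (minimum count 10, minimum total 15), TMM scaling, a robust quasi-likelihood fit without covariates, two-sided F test and Benjamini-Hochberg adjustment over all 15313 tested genes, with calls at an adjusted p under 0.05. SE was taken as the size of the log2 fold change divided by the root of F, and log2 fold changes are shSPTLC2 over shCON. Alternatives used DESeq2 1.42.0, limma 3.58.1 (voom, or log2 of FPKM plus 0.1 or 1), other scalings and filters, a GC correction, a replicate block and 1 library left out. Libraries of a group differed beyond sampling noise (chi-square p under 0.05 for 28.4% of genes in shSPTLC2 and 36.7% in shCON), so none repeats another and each was counted once. This does not show that they came from separate cultures. The main edgeR fit was tested on simulated counts.

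The members and gene lists were chosen with earlier results of these data known, and the lists were written from general knowledge. A corepressor gene is not reported here and was left out of its list. The text names all members, the MLX branch, SPTLC2 and ZDHHC15, overlapping genes and neighbours of MYC within 100 kb that hold counts, up to 6 genes per list by adjusted p and 2 by mean CPM, and the 5 nearest coding genes of 2 members. List genes named because a count was 5 or fewer, and the cell markers given values, were chosen after their values were seen.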

Additional observations from a re-analysis of the deposited data

How the results depend on the processing

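MYC kept its direction and its call in all 15 alternatives, and all called members kept their direction. Leaving out 1 library moved the calls over all genes to 413 to 1977 higher and 227 to 2050 lower, and those over the members to 0 to 4 higher and 1 to 2 lower. It moved the MYC-induced list to 0 to 2 higher and 2 to 22 lower, the MYC-repressed list to 1 to 7 higher and 1 to 5 lower, coactivators to 1 to 8 lower, corepressors to 1 to 7 higher and 0 to 2 lower, MGA partners to 0 to 1 higher, the MLX branch to 0 to 1 higher and turnover genes to 0 to 1 higher and 0 to 4 lower. These fits have 1 fewer library, and the one left alone in its group is assumed to vary like the others.

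Limma on log2(FPKM + 0.1) called 920 genes higher and 799 lower, and on log2(FPKM + 1) 921 and 795. Both called 2 members higher and 1 lower, 9 MYC-induced genes lower, 1 MYC-repressed gene lower, 2 corepressors higher, 0 MGA partners and 0 MLX branch genes higher, and 1 or 0 corepressors lower. With library totals, 65.1% of calls were higher, against 53.6% with TMM, the median of all genes moved by 0.0543, and 9 MYC-induced genes and 1 corepressor were lower and 2 turnover genes higher. MGA partners had 0 genes higher by DESeq2, with no filter and with GC correction, and the MLX branch 0 by DESeq2. With GC correction 2 turnover genes were higher. The cause was not tested.

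The labels do not say that equal replicate numbers mark a shared culture, and deviations of same-numbered libraries had a correlation of -0.013. With the replicate number as a block, 4 members were called higher and 2 lower, and 1776 genes higher and 1531 lower in all. With GC correction and block, 7 corepressors, 2 turnover genes and 0 MGA partners were higher. Values that changed sign were never called: MGA (0.03 with library totals, 0.02 with GC correction, 0.02 with block too), HDAC1 (0.04 with library totals, 0.05 with GC correction, 0.05 with block too, 0.00 with at least 50 counts, -0.03 to 0.00 with 1 library left out), CBX3 (0.01 with library totals, -0.12 to 0.02 with 1 library left out), PRELID1 (0.13 without shCON replicate 1, range with 1 library left out -0.25 to 0.13) and RAB24 (0.00 with library totals, 0.04 without shCON replicate 1, 0.09 without shSPTLC2 replicate 2, range -0.21 to 0.09). Of 1078 single-gene values under alternatives, 931 kept direction and side of the threshold, 109 lost the call and 24 gained it. Depth limits MYCN, MYCL and MLXIPL.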
